A study of Drosophila melanogaster with 4 samples.

Results

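The genes that start and carry out apoptosis were examined in the heads of Drosophila melanogaster that express MJDtr-78Q. They are 10 genes of the 15682 in the deposited table, chosen by gene symbol and matched through their FlyBase gene IDs: the inducers hid, rpr, grim and skl, the caspases Dronc, Drice, Dcp-1 and Dredd, the caspase activator Dark and the inhibitor Diap1. All 10 were found, and 9 were expressed highly enough to test, grim being the exception. The choice was made with earlier results of these data known, so counts set beside all tested genes are a description. The study sequenced poly(A) RNA from whole heads in 4 libraries, 2 of flies expressing MJDtr-78Q and 2 of w1118 flies that do not express it, w1118 being a laboratory strain with a disrupted white gene. MJDtr-78Q, a shortened human ataxin-3 (the MJD protein) whose polyglutamine stretch is expanded, is toxic to neurons and models the inherited ataxia Machado-Joseph disease. Set side by side, the groups show whether transcripts of the death pathway differ between heads that make the toxic protein and w1118 heads. Any other genetic difference between the groups, such as the driver or the transgene insertion, cannot be told apart from the toxic protein. No source used here gives the driver of the transgene, the cells it reaches, or the age and sex of the flies. Separate sets of flies for the libraries of a group are not stated either, so p-values measure only the spread between these libraries, which may be technical.

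Apoptosis in the fly is held in check by Diap1, an inhibitor of apoptosis protein (IAP) that binds caspases and marks them for degradation. The proteins Hid, Reaper (rpr), Grim and Sickle (skl) bind Diap1 through a short motif at their amino terminus and release the caspases. Freed Dronc, the initiator caspase, joins Dark, the fly counterpart of Apaf-1, in the apoptosome, which cleaves and activates the effector caspases Drice and Dcp-1. Dredd is an initiator-type caspase that acts mainly in the Imd branch of innate immunity. In the fly eye, raised hid or rpr is enough to remove cells. IAP and caspase activity are also controlled after transcription, so mRNA levels measure neither the amounts of these proteins nor caspase activity.

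The deposited values are log2(count + 1). The authors' scaling had made the libraries of a group alike but not the groups: the median tested gene differed by -1.23 between MJDtr-78Q and w1118 libraries. The 4 libraries were therefore quantile normalized together, and unless said otherwise levels are on that log2(count + 1) scale and differences are MJDtr-78Q minus w1118, with n = 2 per group. The back-transformed totals were 3111583 and 3111393 counts in MJDtr-78Q and 7147867 and 7147717 in w1118 libraries, values equalized by the authors, so counting error per gene is unknown. Over the 9049 tested genes the median gap between the libraries of a group was 0.52 in MJDtr-78Q and 0.24 in w1118, and MJDtr-78Q library 1 correlated with w1118 library 1 (Pearson's r = 0.949) more closely than with MJDtr-78Q library 2 (r = 0.910). Markers of head tissue were abundant: photoreceptor markers summed to 72794 and 53879 counts in MJDtr-78Q and 100024 and 97761 in w1118 libraries, and neuron markers to 14183 and 6682 against 10018 and 7436. In whole heads, fewer cells of a type and less RNA per cell cannot be told apart.

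The inducer hid, the initiator caspase Dronc and the effector caspase Drice were higher in both MJDtr-78Q libraries than in both w1118 libraries. Dronc was 3.32 times, hid 2.16 times and Drice 1.85 times the w1118 level. The inhibitor Diap1 was lower in both MJDtr-78Q libraries, at 0.825 times the w1118 level, while rpr, skl, Dcp-1 and Dredd overlapped between the groups. These levels are relative to all genes: as deposited, with no scaling between the groups, the values of hid, Dronc and Drice overlapped. None of the differences passed the test over all tested genes (limma with Benjamini-Hochberg adjustment, 0 of 9 genes beside a background of 0.00% of 9049). Before adjustment 3 of 9 had p under 0.05 in limma, all higher in MJDtr-78Q, beside 3.46% of all tested genes higher and 2.42% lower.

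**Figure D1:**
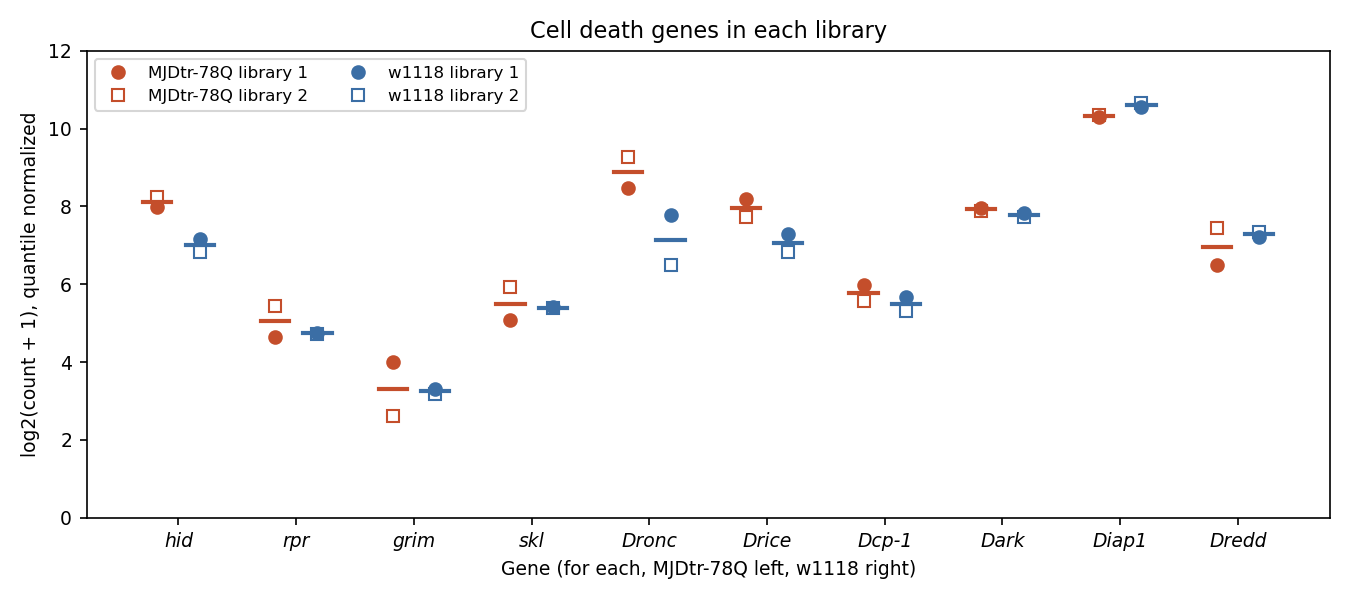
Level of each of the 10 genes in each library, on the quantile-normalized log2(count + 1) scale, with MJDtr-78Q to the left and w1118 to the right; bars are group means. For hid, Dronc and Drice both MJDtr-78Q points lie above both w1118 points on this scale, which is not so in the values as deposited, whereas Diap1 lies slightly below and rpr, grim, skl and Dredd are spread more widely in MJDtr-78Q than in w1118.

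Of the 4 inducers, hid (head involution defective, FBgn0003997) had the largest difference. It lies on chromosome 3L at positions 18160841 to 18178741 of the deposited coordinates, whose genome build is not given. Its level was 7.98 and 8.25 in MJDtr-78Q libraries, against 7.16 and 6.84 in w1118 libraries. The groups were separated by 0.81, more than the gap within either group, which was 0.27 between the MJDtr-78Q libraries and 0.33 between the w1118 libraries. Its difference was 1.11 (SE 0.25, 95% interval 0.46 to 1.77), which is larger than that of 97.2% of the tested genes, with limma unadjusted p = 0.00752 and adjusted p = 0.612. Back-transformed, this is 251 and 303 counts in MJDtr-78Q libraries against 142 and 113 counts in w1118 libraries.

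Reaper (rpr, FBgn0011706, 3L, positions 18390634 to 18391535), which can start apoptosis when expressed alone, was at 4.65 and 5.44 in MJDtr-78Q libraries and at 4.75 and 4.72 in w1118 libraries. One MJDtr-78Q library lay below both w1118 libraries and the other above both. The difference was 0.31 (SE 0.39), with an interval of -0.71 to 1.33 that holds both a 2-fold rise and no difference, and it was -0.08 without MJDtr-78Q library 2. Sickle (skl, FBgn0036786, 3L, positions 18431660 to 18433042), a weaker inducer of the same family, had the same layout, with 5.08 and 5.92 in MJDtr-78Q libraries and 5.42 and 5.39 in w1118 libraries. Its difference of 0.10 (SE 0.38, interval -0.88 to 1.07) took the other sign with TMM scaling (-0.0098), with upper-quartile scaling (-0.016) and without MJDtr-78Q library 2 (-0.32). In both genes the w1118 libraries nearly coincided and the MJDtr-78Q libraries stood 0.79 and 0.83 apart. Gaps over 0.75 are common in that group: 33.2% of all tested genes had one in MJDtr-78Q and 6.14% in w1118.

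Grim (FBgn0015946, 3L, positions 18295818 to 18297517) was near the lower limit of the data, with 15.1 and 5.09 counts in MJDtr-78Q libraries and 8.92 and 8.08 counts in w1118 libraries after normalization. Its mean of 9.30 counts is just under the minimum mean of 10 for testing. On the log2 scale it was at 4.01 and 2.61 in MJDtr-78Q libraries and 3.31 and 3.18 in w1118 libraries, so the groups overlapped. MJDtr-78Q library 1 was the higher of the pair for grim but the lower one for hid, rpr and skl.

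The 4 inducers lie in a row on 3L, from hid to skl, within 272202 base pairs of the deposited coordinates, and the annotation puts all of them on the minus strand. Of the 5 other genes listed between them, 1 was tested, CheA75a, a gene of the CheA family of chemosensory proteins, with a difference of 0.68 (SE 0.90) and overlapping groups. The protein-coding gene CG5103 and the noncoding RNA gene lncRNA:CR43306 were listed at 0 in all 4 libraries. Relative to rpr, hid was higher in both MJDtr-78Q libraries than in both w1118 libraries: the log2 ratio of hid to rpr in the deposited values was 3.34 and 2.85 in MJDtr-78Q libraries, against 2.41 and 2.14 in w1118 libraries. Of all other tested genes, 4.22% were higher relative to rpr without overlap.

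The initiator caspase gene Dronc (FBgn0026404, 3L, positions 9961578 to 9964102) had the largest difference of the tested members. It was at 8.48 and 9.27 in MJDtr-78Q libraries and at 7.78 and 6.50 in w1118 libraries, that is 355 and 616 counts against 218 and 89.8 counts. The groups were 0.70 apart, but the w1118 libraries were 1.27 apart from each other and the MJDtr-78Q libraries 0.79. The difference was 1.73 (SE 0.53, interval 0.37 to 3.10; limma unadjusted p = 0.0227, adjusted p = 0.704), larger than that of 98.9% of the tested genes. Leaving out w1118 library 2, the lowest of the 4, left a difference of 1.10, and leaving out w1118 library 1 gave 2.39. Dronc was the only gene of the 10 with a difference above 0 in the values as deposited, 0.53.

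Dark (FBgn0263864, 2R, positions 12907548 to 12914208), the scaffold that gathers Dronc into the apoptosome, was at 7.96 and 7.89 in MJDtr-78Q libraries and at 7.84 and 7.72 in w1118 libraries. The groups did not overlap but were only 0.05 apart, and the difference of 0.14 (SE 0.22) had an interval of -0.42 to 0.71, which stays short of a 2-fold change either way. With TMM scaling and with length correction the groups of Dark overlapped. The log2 ratio of Dronc to Dark in the deposited values was 0.53 and 1.40 in MJDtr-78Q libraries, against -0.06 and -1.19 in w1118 libraries. The ratio was thus higher in both MJDtr-78Q libraries than in both w1118 libraries, by at least 0.59, and 9.28% of all other tested genes were higher relative to Dark without overlap.

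The main effector caspase gene Drice (FBgn0019972, 3R, positions 25625374 to 25627307), which cleaves cell proteins once Dronc has activated it, was at 8.18 and 7.72 in MJDtr-78Q libraries and at 7.30 and 6.84 in w1118 libraries. Its groups were 0.42 apart, about as far as the libraries of each group were from one another (0.46 in MJDtr-78Q and 0.47 in w1118). The difference was 0.88 (SE 0.30, interval 0.11 to 1.66; limma unadjusted p = 0.0329, adjusted p = 0.763). Dcp-1 (FBgn0010501, 2R, positions 19438837 to 19441079), the other effector caspase, which also acts in starvation-induced autophagy in the ovary, was at 5.99 and 5.56 in MJDtr-78Q libraries and at 5.68 and 5.32 in w1118 libraries. These groups overlapped, and the difference of 0.28 (SE 0.31) had an interval of -0.53 to 1.08. In the deposited values the log2 ratio of Drice to Dcp-1 was 2.24 and 2.19 in MJDtr-78Q libraries, against 1.60 and 1.52 in w1118 libraries, and 6.92% of all other tested genes were higher relative to Dcp-1 without overlap. The locus of Dcp-1 overlaps that of pita on the other strand, and the strand setting of the counting is not given.

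Diap1 (FBgn0260635, also called thread, 3L, positions 16031509 to 16044134) had the highest level per length of exon of the 10 genes. It was at 10.30 and 10.36 in MJDtr-78Q libraries and at 10.56 and 10.65 in w1118 libraries. All 4 values lay within a narrow range, with gaps of 0.07 between the MJDtr-78Q libraries and 0.09 between the w1118 libraries. The groups were 0.20 apart, and the difference was -0.28 (SE 0.22, interval -0.85 to 0.29). That interval does not reach a 2-fold difference. With a library left out the difference was -0.32 to -0.23. In the values as deposited it was -1.46, beside a median of -1.23 over all tested genes, so its sign there follows from the scaling. Its locus overlaps the noncoding RNA gene lncRNA:CR43951 on the other strand.

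Dredd (FBgn0020381, X, positions 527552 to 529760) was at 6.49 and 7.45 in MJDtr-78Q libraries and at 7.21 and 7.35 in w1118 libraries. The MJDtr-78Q libraries lay on both sides of the w1118 libraries, 0.95 apart. The difference of -0.31 (SE 0.38, interval -1.29 to 0.66) turned to 0.16 when MJDtr-78Q library 1 was left out and was -0.79 when library 2 was, so its sign rests on 1 library. The locus of Dredd overlaps that of Mybbp1A on the other strand.

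**Figure D2:**
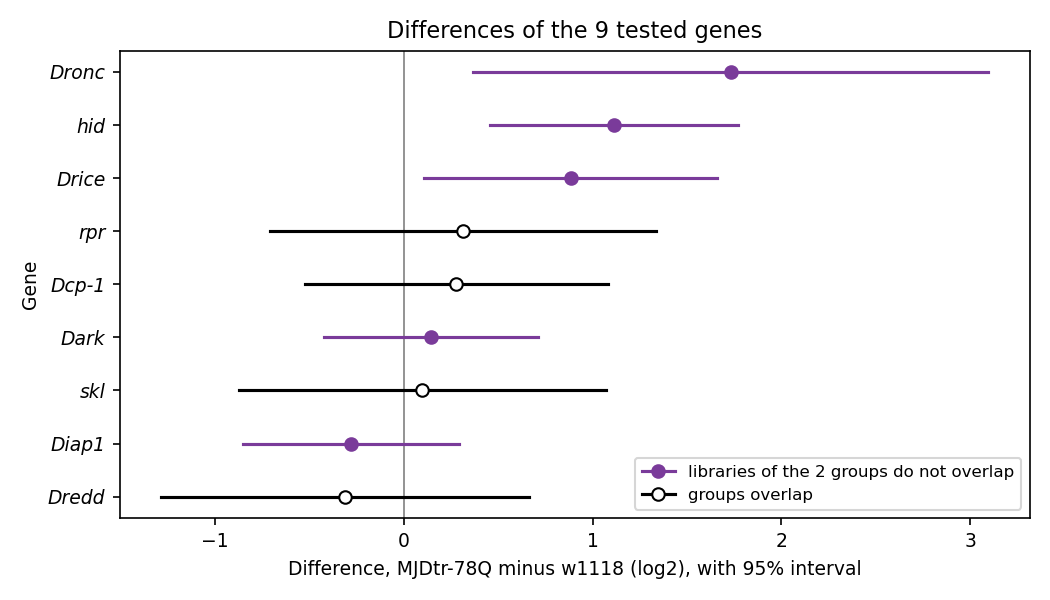
Difference of each of the 9 tested genes, MJDtr-78Q minus w1118 on the log2 scale (point), with its 95% interval from limma (line); filled purple points mark genes whose libraries did not overlap between the groups. The intervals of Dronc, hid and Drice lie above 0 before adjustment for the number of genes tested, and those of the other 6 genes span 0.

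Of the 9 tested genes, 4 (hid, Dronc, Drice and Dark) were higher without overlap in MJDtr-78Q libraries, beside 14.0% of all tested genes, and 1 (Diap1) was lower without overlap, beside 15.5%. Hid and Dronc were also at least 2-fold higher, which held for 3.08% of all tested genes, and 0 members were at least 2-fold lower without overlap (2.08%). At an unadjusted p under 0.05, 3 members were higher (3.46% of all tested genes) and 0 lower (2.42%). That count of 3 became 0 without w1118 library 2 and stayed between 2 and 3 with any other library left out. The count higher without overlap became 7 without MJDtr-78Q library 1, where it also held for 36.2% of all tested genes. The count lower without overlap became 4 without MJDtr-78Q library 2, beside 46.0% of all tested genes, since 1 library is easier to separate from 2. With TMM scaling the count higher was 3, without Dark, and with length correction it was 4, with rpr in place of Dark. Shares of all tested genes under those settings were not counted. The median difference of the 9 genes was 0.28, from -0.31 to 1.73, with 7 above 0, while over all tested genes the median was -0.02 with 4216 above 0 and 4829 below. With a library left out the median ran from 0.10 without w1118 library 2 to 0.52 without MJDtr-78Q library 1.

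The signs of 6 of these genes depend on how the groups are scaled to each other, because the deposited values differ between the groups as a whole. In the values as deposited hid differed by -0.11, Drice by -0.34, rpr by -0.92, Dcp-1 by -0.99, Dark by -1.07 and skl by -1.17, all beside the median of -1.23. Taken relative to the median of all tested genes, hid was at 1.14 after quantile normalization and at 1.13 with the deposited, TMM and upper-quartile scalings. In the same way Dronc was at 1.76 with the deposited scaling and 1.77 with TMM, Drice at 0.90 with each, and Diap1 at -0.25 after quantile normalization and -0.23 with the deposited scaling. These scalings move the genes of a library nearly alike and subtracting the median takes that shift out, so the likeness of these values follows from how they are computed and is no check of the differences.

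**Figure D3:**
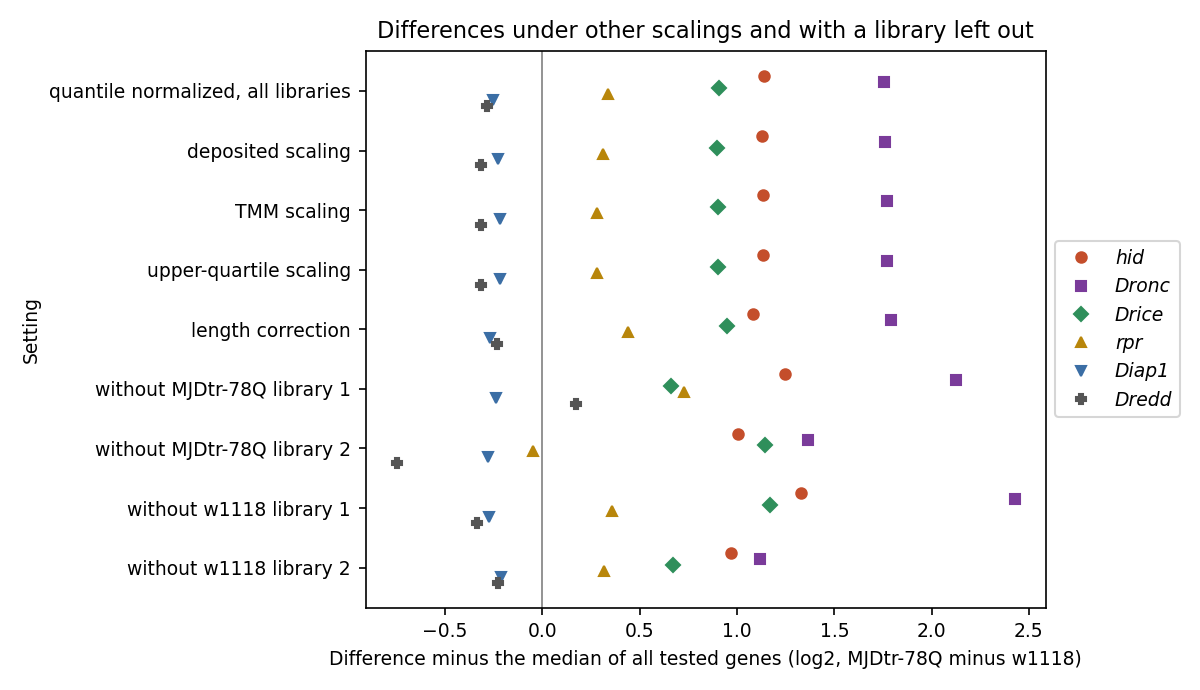
Differences of 6 genes minus the median of all tested genes (log2, MJDtr-78Q minus w1118) under 4 scalings, after a correction for transcript length, and with each library left out. The symbols of hid, Dronc and Drice stay to the right of 0 in every row, between 0.66 and 2.43, those of Diap1 to the left, and rpr and Dredd cross 0 with 1 MJDtr-78Q library left out.

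Ratios within a library depend little on a common scaling factor between the groups, except for low genes, where the added count of 1 matters. They were computed with Diap1, the protein that all 4 inducers bind, as the denominator. They were chosen after the values had been seen. The log2 ratio of hid to Diap1 in the deposited values was -2.34 and -2.12 in MJDtr-78Q libraries, against -3.38 and -3.79 in w1118 libraries. The ratio of Dronc to Diap1 was -1.83 and -1.08 in MJDtr-78Q libraries and -2.78 and -4.12 in w1118 libraries, and that of Drice to Diap1 was -2.12 and -2.66 against -3.24 and -3.79. For each of these 3 genes both MJDtr-78Q libraries lay above both w1118 libraries, by at least 0.58. Rpr and Dark were also higher relative to Diap1 without overlap, but the groups were only 0.11 and 0.23 apart. For skl, grim, Dcp-1 and Dredd the ratios overlapped in the deposited values. After quantile normalization that of Dcp-1 was higher in MJDtr-78Q without overlap, by 0.08. Diap1 itself was lower than the median gene with closely spaced libraries, and 32.7% of all other tested genes were higher relative to Diap1 without overlap, so a ratio above that of w1118 is common with this denominator. The ratios were not tested.

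**Figure D4:**
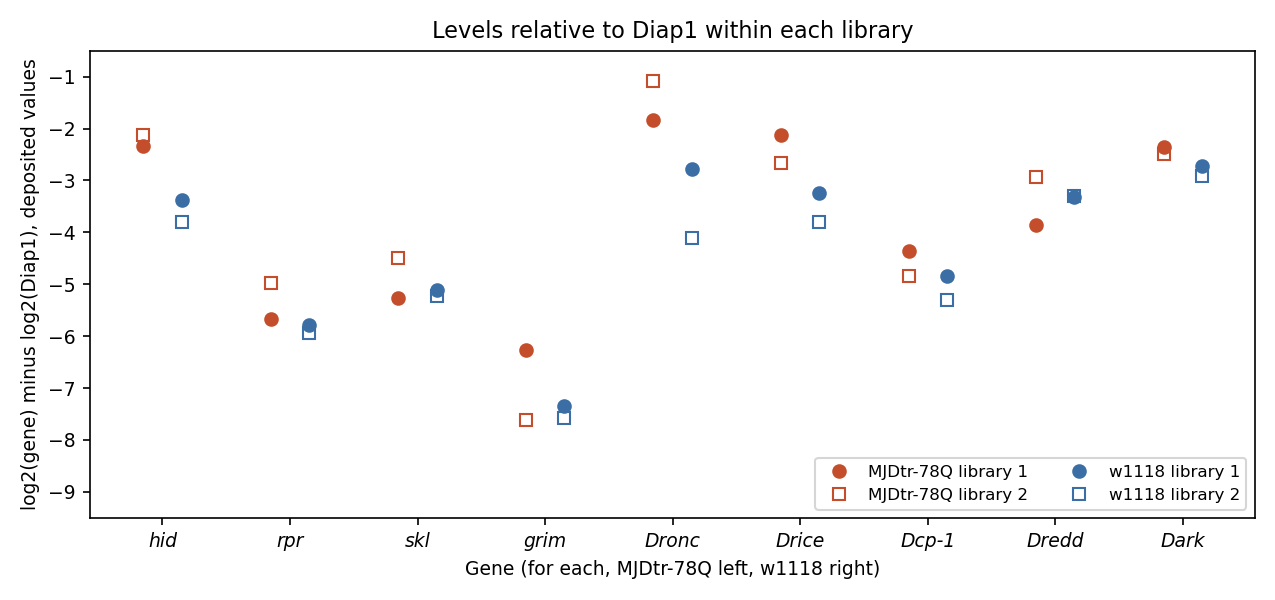
Log2 level of 9 genes minus that of Diap1 in the same library, from the deposited values, with MJDtr-78Q to the left and w1118 to the right. Hid, Dronc and Drice are higher relative to Diap1 in both MJDtr-78Q libraries, with gaps of 1.04, 0.95 and 0.58 between the groups, and skl, grim, Dcp-1 and Dredd overlap.

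Divided by exonic length, levels can be set against each other across genes. In MJDtr-78Q heads Diap1 came first with a mean of 409 normalized counts per kilobase, followed by Dronc with 241, Drice with 130, Dredd with 76.9, hid with 68.9, Dark with 49.5, rpr with 37.0, skl with 33.4, Dcp-1 with 31.1 and grim with 5.95. In w1118 heads the order was Diap1 with 496, Dredd with 90.6, Dronc with 76.5, Drice with 70.1, Dark with 44.9, hid with 31.8, skl with 29.9, rpr with 28.5, Dcp-1 with 25.5 and grim with 5.005. Dronc and Drice stood apart from their neighbours in MJDtr-78Q heads, with Dronc at 176 and 305 and Drice at 150 and 109 per kilobase. In w1118 heads Dronc, ranging from 44.6 to 108, overlapped with both Dredd and Drice, which did not overlap with each other. Hid was above Dark in both MJDtr-78Q libraries (62.4 and 75.3 against 50.6 and 48.4) and below it in both w1118 libraries (35.4 and 28.2 against 46.6 and 43.1). In MJDtr-78Q heads Dredd overlapped with hid, and rpr, skl and Dcp-1 with their neighbours, as did hid with skl and rpr with Dcp-1 in w1118 heads, and grim stood below all others in each group. The lengths come from an annotation whose build may differ from that of the deposited coordinates.

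Around these 10 genes, 8 lists of related genes held 59 symbols, of which 55 were in the table and 52 were tested. Together they had a median difference of 0.02, with 28 genes above 0, 23 below 0 and 1 at 0. None passed the test (limma, 0 of 52), and 2 were higher at an unadjusted p under 0.05, NimC4 and Eip74EF. That is a share of the 52 near the 3.46% of all tested genes, and their values below are a description. Without overlap, 9 were higher and 4 lower, shares of the 52 that can be read against the 14.0% and 15.5% of all tested genes.

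NimC4, also called simu, encodes a receptor through which glia and hemocytes take up apoptotic cells. It was at 7.73 and 8.02 in MJDtr-78Q libraries and at 6.42 and 5.87 in w1118 libraries, so the groups were far apart. The difference was 1.73 (SE 0.29; limma unadjusted p = 0.0022, adjusted p = 0.595). The other engulfment genes had smaller differences: the receptor gene drpr (draper) differed by 0.11 (SE 0.25), its adaptor gene Ced-6 by -0.03 (SE 0.22) and the scavenger receptor gene Sr-CI by 0.32 (SE 0.25), with crq and Ced-12 between these. The median of the 6 was 0.10, with 5 above 0. Of the 6, 2 (NimC4 and Sr-CI) were higher without overlap, beside 14.0% of all tested genes, and the groups of Sr-CI were only 0.14 apart.

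Among 14 tested regulators of the inducers the median was 0.08, with 8 above 0 and 6 below. Eip74EF, an ecdysone-induced transcription factor of the ETS family, was at 9.17 and 8.82 in MJDtr-78Q libraries and at 8.05 and 7.51 in w1118 libraries, a difference of 1.22 (SE 0.30; limma unadjusted p = 0.0106, adjusted p = 0.628). The ecdysone-induced transcription factor gene Eip93F differed by 0.81 (SE 0.72), the transcription factor gene Blimp-1 by 0.71 (SE 1.03) and the nuclear receptor gene Hr39 by 0.53 (SE 0.38), each with overlapping groups. Eip93F and Blimp-1 were below 0 without MJDtr-78Q library 1, at -0.18 and -0.66. The tumour suppressor gene p53, which activates hid, rpr and skl after DNA damage, differed by -0.08 (SE 0.29), and foxo, a transcription factor gene of insulin signalling and stress, by -0.10 (SE 0.22).

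In the group of the death ligand, its receptors and the JNK relay, 7 genes had a median of -0.06, from -0.50 to 0.28. The ligand gene egr (eiger, the fly TNF) differed by -0.18 (SE 0.25) and the receptor gene wgn by 0.28 (SE 0.22). The phosphatase gene puc, a target and inhibitor of JNK signalling, was at 8.13 and 8.31 in MJDtr-78Q libraries and at 8.65 and 8.80 in w1118 libraries, a difference of -0.50 (SE 0.23) that did not pass (limma adjusted p = 0.948).

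The IAP family and its regulators had a median of 0.00 over 7 tested genes, with 3 above and 3 below 0. Diap2, the IAP of the Imd pathway, was at 8.77 and 9.01 in MJDtr-78Q libraries and at 9.09 and 9.21 in w1118 libraries, a difference of -0.26 (SE 0.23) close to that of Diap1. The ubiquitin ligase scaffold gene Cul3, used in caspase regulation during sperm formation, differed by 0.48 (SE 0.30), and eff, which encodes an E2 ubiquitin-conjugating enzyme, by 0.46 (SE 0.33). Of the other caspases, Strica was at 4.36 and 3.86 in MJDtr-78Q libraries and at 3.78 and 2.71 in w1118 libraries, a difference of 0.87 (SE 0.58), while Decay and Damm were too low to test. The translation factor gene Tango7, which helps the apoptosome, differed by -0.48 (SE 0.44).

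The Bcl-2 family gene Buffy differed by -0.34 (SE 0.36) and AIF, a mitochondrial flavoprotein gene, by 0.30 (SE 0.23). The list they belong to had a median of -0.12 over 4 tested genes. The DNA fragmentation factors Drep1, Drep2, Drep3 and Drep4 had a median of 0.0086, from -0.24 for Drep1 (SE 0.29) to 0.35 for Drep2 (SE 0.39). Partners of Dredd in the Imd pathway had a median of 0.02 over 8 tested genes. The NF-kappaB gene Rel, whose product Dredd cleaves, was at 9.28 and 10.48 in MJDtr-78Q libraries and at 10.45 and 10.47 in w1118 libraries. Rel differed by -0.58 (SE 0.44) and, like Dredd, was low in MJDtr-78Q library 1 and near w1118 levels in library 2. A gap over 0.75 between the MJDtr-78Q libraries, as in Rel and Dredd, was found in 33.2% of all tested genes. PGRP-LE, a peptidoglycan receptor gene, differed by 0.26 (SE 0.25).

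**Figure D5:**
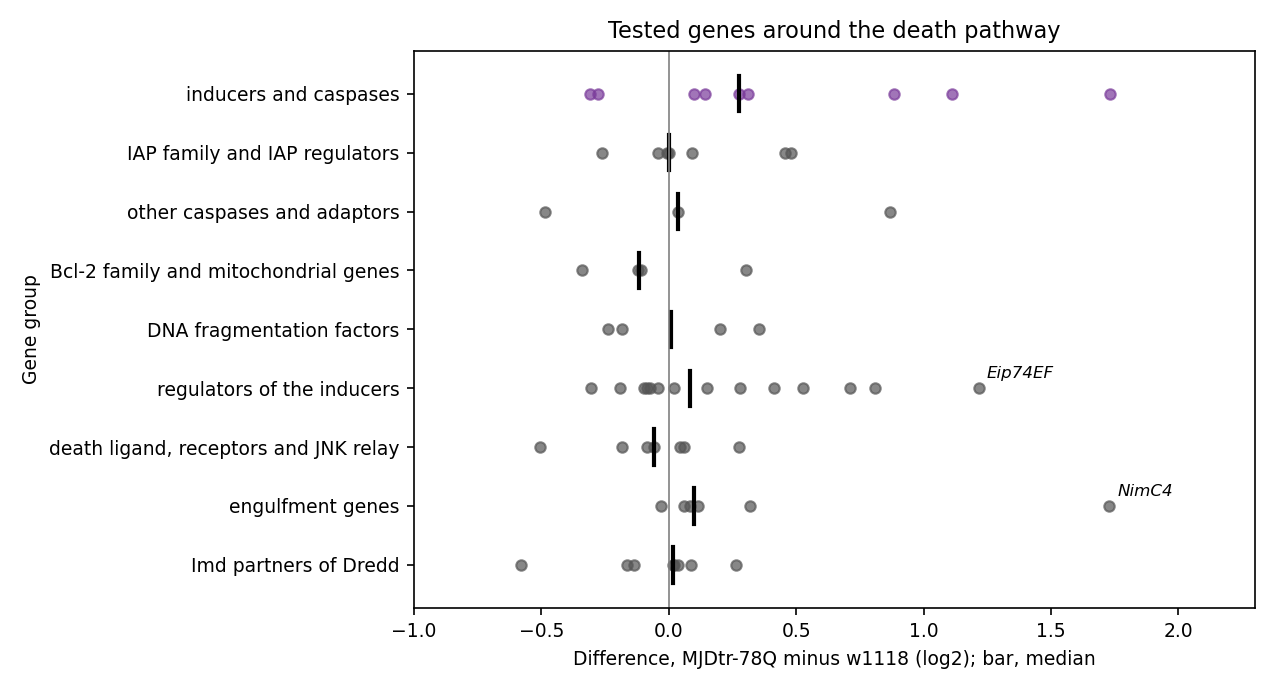
Differences (log2, MJDtr-78Q minus w1118) of tested genes in the 9 groups, 1 point per gene, with a bar at each median. The 9 inducer, caspase and inhibitor genes have a median of 0.28, the other groups lie between -0.12 and 0.10, and the highest points are NimC4 at 1.73, with the next engulfment gene at 0.32, and Eip74EF at 1.22, with the next regulator at 0.81.

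Markers of other cells were also compared after quantile normalization, and none passed the test over all tested genes. Muscle markers summed to 66268 and 41842 normalized counts in MJDtr-78Q libraries, against 37387 and 33692 in w1118 libraries. All 4 tested markers were above 0, and 3 were higher without overlap, beside 14.0% of all tested genes. The exception was Mhc, with a difference of 0.64 (SE 0.61). It held 43175 of these counts in MJDtr-78Q library 1 and 12732 in library 2, against 17031 and 13369 in w1118 libraries. Hemocyte markers summed to 1714 and 1361 counts in MJDtr-78Q libraries and 1383 and 898 in w1118 libraries, so these sums overlapped. Of the tested hemocyte markers 4 of 4 were above 0, from 0.43 for Ppn (SE 0.31) to 0.77 for eater (SE 0.28). The marker He was too low to test. Fat body markers summed to 84420 and 93835 counts in MJDtr-78Q and 90656 and 84726 in w1118 libraries, which also overlapped. Their median difference was 0.42, with 3 of 4 above 0, from -0.16 for Yp2 (SE 0.27) to 1.96 for Fbp2 (SE 0.63). The photoreceptor genes ninaE and Arr2 were lower in both MJDtr-78Q libraries, with differences of -1.09 (SE 0.20) and -1.34 (SE 0.22). The other photoreceptor markers had overlapping groups. Their differences were -0.34 for norpA (SE 0.42), -0.01 for ninaC (SE 0.44) and 0.24 for trp (SE 0.27). Neuron and glia markers had medians of 0.22 and 0.15, and glia markers summed to 15438 and 10666 counts in MJDtr-78Q and 12870 and 10783 in w1118 libraries. Ovary and testis markers summed to at most 3.15 counts in any library, and gut markers were listed at 0 apart from 34.3 counts in MJDtr-78Q library 2. The part of these cell types in the differences of hid, Dronc, Drice and NimC4 was not tested.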

How the data were processed

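The authors deposited 1 table of log2 values, which by their form are log2(count + 1) for 15682 genes; the sorted values of a group's libraries nearly coincide and those of the groups do not, a step that no label records. Per the labels' protocols the libraries were stranded and poly(A)-selected, and the submitters' processing notes list, with no roles, HTSeq 0.6.1, TopHat2 2.0.10, Bowtie, cutadapt 1.2.1 and CASAVA 1.8.2. No genome build is given there.

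The 4 libraries were quantile normalized together and genes with a back-transformed mean of at least 10 were compared between groups with limma 3.58.1 in R 4.3.3 (intensity trend, two-sided, Benjamini-Hochberg adjustment over 9049 genes at 0.05). The log2(count + 1) scale understates changes of low genes. Gene IDs were matched to symbols in a reference table (15002 matched, 680 did not) and exonic lengths from an Ensembl annotation of another release, which had a length for 95.5% of tested genes. Of the listed genes, 6 symbols, among them Bruce, Cyt-c-p, br and Traf6, had IDs absent from the table and are not analysed here. The 10 genes and the lists were chosen with earlier results of these data known, so no p over a list alone is given. Named genes were the 10 genes, the 2 of each list with the smallest p, any passing the test, genes between hid and skl, and the 3 closest profiles to the gene with the largest difference; other list genes were added after their values were seen. The steps were tested on simulated data. Alternatives were other scalings (none between groups, TMM, upper quartile), pseudocounts of 5 and 0.5, a minimum mean of 50 or no filter, a variance model without trend or with a robust prior, the replicate number as a block, length correction (loess, span 0.5) and each library left out.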

Additional observations from a re-analysis of the deposited data

How the results depend on the processing

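All values are MJDtr-78Q minus w1118. Of 141 values of the members under alternatives, 122 kept their sign and stayed short of the threshold, 8 kept their sign and passed it, and 11 changed sign, 3 of them passing it, so that 11 values passed in all. With the deposited scaling, which leaves a median of -1.23 between the groups, 5 members passed, beside 6742 genes (74.5% of all tested), 6728 of them lower. There 5 members were under an unadjusted p of 0.05, 0 were higher and 6 lower without overlap, and the members' median was -0.99. With most genes lower at this scaling, these counts are not particular to the members. Values then below 0 were -0.11 for hid, -0.92 for rpr, -1.17 for skl, -0.34 for Drice, -0.99 for Dcp-1, -1.07 for Dark, -0.67 for Cul3, -0.74 for eff, -0.26 for Strica, -0.92 for AIF, -0.86 for Drep2, -0.70 for Hr39, -0.37 for Eip93F, -0.53 for Blimp-1, -0.90 for wgn, -0.94 for Sr-CI, -0.98 for PGRP-LE and -1.04 for drpr. These 18 values had been above 0 after quantile normalization, and relative to that median each was still above 0. With TMM and upper-quartile scaling skl was at -0.0098 and -0.016. Length correction gave 6 genes past the threshold. A minimum mean of 50 left 6 members, with a median of 0.51.

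The labels do not say that equal replicate numbers mark a pair. Deviations of same-numbered libraries from their group means had r = 0.536 over 9049 genes. With the replicate number as a block, 387 genes passed (4.28%), among them the 3 members hid, Dronc and Drice, and NimC4 and Eip74EF. With the block and length correction together, 737 genes (8.53% of 8641) passed, among them 3 members.

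With a library left out, 4 to 7 members were higher without overlap, which also held for 19.5% to 41.9% of all tested genes. From 1 to 4 members were lower without overlap, which held for up to 46.0% of all tested genes. The members' median ran from 0.10 to 0.52. Signs turned within the ranges -0.082 to 0.72 for rpr, -0.32 to 0.52 for skl, -0.79 to 0.16 for Dredd, -1.07 to 0.093 for Tango7, -0.10 to 0.80 for Drep2, -0.52 to 0.049 for Drep1, -1.18 to 0.017 for Rel, -0.18 to 1.79 for Eip93F, -0.66 to 2.07 for Blimp-1, -0.070 to 0.29 for drpr and -0.29 to 0.13 for p53. These turned without MJDtr-78Q library 1, except rpr and skl, which turned without MJDtr-78Q library 2, and without w1118 library 2 p53 was above 0 and Blimp-1 below 0 (-0.047) as well. The causes were not tested. Depth per gene is unknown because the deposited values are averaged logs, and 2 libraries a group limit every comparison.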

Other observations

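The 3 genes of the whole table whose levels over the 4 libraries lay closest to those of Dronc, by the distance between centred log2 profiles, were CG12998, CG42749 and Eh, which encodes eclosion hormone, a neuropeptide that triggers ecdysis behaviour. CG12998 was at 9.06 and 9.73 in MJDtr-78Q libraries and at 8.32 and 7.26 in w1118 libraries, at a distance of 0.209. CG42749 was at 4.01 and 4.45 in MJDtr-78Q libraries and at 3.05 and 1.99 in w1118 libraries, at a distance of 0.291. Eh was at 5.48 and 6.42 in MJDtr-78Q libraries and at 5.15 and 3.86 in w1118 libraries, at a distance of 0.305. Over 4 libraries such likeness describes only the order and spacing of the values.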
